A study of Mus musculus with 9 samples.

Results

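The BCL2 family survival genes are 10 genes whose proteins set whether a cell undergoes mitochondrial apoptosis: Bcl2, Bcl2l1, Mcl1, Bcl2l11, Bax, Bak1, Bbc3, Pmaip1, Bad and Bid. They were chosen by name and not by a rule on their values, although earlier results of these data were known. All 10 were found by symbol among the 55471 gene identifiers of the count files and passed the filter on low counts. Their levels were measured by RNA sequencing in mouse CD8+ T cells with the OT-I transgene, whose T cell receptor recognises an ovalbumin peptide. The control group (n = 4) was labelled Bdh1-WT;shCtrl, which is an intact Bdh1 gene with a hairpin RNA (shRNA) that targets firefly luciferase. The group called DKO (n = 5) was labelled Bdh1-KO;shOxct1, a Bdh1 knockout with an shRNA against Oxct1. Bdh1 and Oxct1 encode enzymes that oxidise beta-hydroxybutyrate and activate acetoacetate, and the design text calls the DKO cells ketolysis-deficient. Cells of both groups were stimulated in culture with antibodies to CD3ε and CD28 and with IL-2, transduced, sorted on the Ametrine reporter and transferred into naive C57BL/6 mice of the CD45.1 type. The mice were infected with LmOVA, a Listeria strain that expresses ovalbumin, and the donor cells were recovered from spleens by a sort 7 days later. All measured cells had therefore passed an activation in IL-2, a transduction and 2 sorts, and cells that died before the second sort were not measured. The labels give no age of the animals, no driver of the Bdh1 deletion, and no statement on whether the replicates of a group came from separate donors or recipients. The p-values then measure only the spread between these libraries, which may be technical.

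In mitochondrial apoptosis, the effector proteins BAX and BAK1 permeabilise the outer mitochondrial membrane and release cytochrome c, which assembles the apoptosome and activates caspases. Guardian proteins such as BCL2, BCL-XL (the product of Bcl2l1) and MCL1 hold the effectors in check, and the BH3-only proteins release or directly trigger the effectors. In CD8+ T cells responding to an infection, the balance between BCL2 and BIM (the product of Bcl2l11) is known for its part in the death of most effector cells after the peak of the response and in the survival of memory precursors. Much of the control of these proteins lies in their stability, localisation and binding, which RNA counts do not measure.

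The libraries held 45205993 to 59853080 counts in genes. Oxct1 was at 63.2 ± 5.73 CPM (counts scaled to effective library size by the TMM method; SD, n = 4) in control and 5.16 ± 0.370 CPM (SD, n = 5) in DKO. Bdh1 was at 30.5 ± 4.16 and 10.6 ± 1.24 CPM, so both genes were lower in the libraries labelled DKO (log2 fold changes -3.61 and -1.52). All 6 T cell markers exceeded 1 CPM, and their summed level was 6102 to 8206 CPM in control and 5510 to 6016 CPM in DKO (exact permutation test, two-sided, p 0.0159, the smallest that the relabellings allow; adjusted p 0.0397 over 5 marker lists). The markers of this sum did not move alike. Cd8b1 was at 2247 and 1702 CPM in control and DKO, and Cd8a at 719.3 and 715.6 CPM. Cd3d, Cd3e, Cd3g and Trac had lower means in DKO. Cd3g was at 1366 CPM in control replicate 1, against 807.6 to 935.0 CPM in the other control libraries. The summed level of 10 myeloid markers was 165.8 to 200.5 CPM in control and 116.1 to 126.1 CPM in DKO, with the same p and adjusted p as the T cell sum, and 8 of the 10 exceeded 1 CPM. Ctss, Itgam and Cd68 held 94.3% of that sum in control and 88.7% in DKO, S100a8 and S100a9 were near 0, and the other 7 genes of the list summed to 7.80 to 14.2 CPM in control and 7.25 to 26.8 CPM in DKO. Sums of B cell, erythroid and platelet, and NK and CD4 T cell markers had adjusted p of 0.582, 0.841 and 0.841. Pax5 was at 0 counts and Cd4 at 0.172 CPM (control) and 0.344 CPM (DKO). Other genes of these lists were not absent. Ighm, at 208.7 and 188.3 CPM, held most of the B cell sum (means 215.7 and 196.1 CPM). Klrb1c (72.9 and 61.4 CPM) and Cd40lg (20.4 and 29.4 CPM) held most of the NK and CD4 sum (93.6 and 91.5 CPM). The part of these marker differences in the results below was not tested. Control replicate 1 stood apart from the other libraries, with long genes low and short genes high, and values that moved most with it are also given without it. Control replicate 3 stood apart on the second principal component of log2 CPM, at -70.2 against -5.59 to 20.2 in the other libraries.

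Of the 10 survival genes, 1 differed between DKO and control at an adjusted p under 0.05 (quasi-likelihood test of edgeR, Benjamini-Hochberg adjustment over 14918 genes), where 2.83% of all tested genes did. That gene was Bid, which fell in DKO. At an unadjusted p under 0.05 there were 3 of the 10 (Bid lower, Mcl1 and Bcl2l1 higher), against 16.0% of all tested genes. Between the groups, CPM did not overlap for those same 3 genes, against 8.71% of all tested genes. In all, 6 of the 10 had a higher fitted mean in DKO and 4 a lower one. Their median log2 fold change was 0.16, against -0.01 over all tested genes, and the median size of the change without regard to sign was 0.31 against 0.18. These medians include control replicate 1, without which the changes were smaller in size for Bcl2l1, Mcl1, Bcl2l11, Bax, Bbc3, Pmaip1 and Bid. They were then larger for Bcl2 (-0.45), Bak1 (0.72) and Bad (0.08). Among the smaller ones were Bcl2l11 (0.12), Pmaip1 (0.07) and Bax (-0.01). The medians were not taken without that library. Lower RNA per cell and a smaller share of cells with the RNA cannot be told apart in these bulk libraries.

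**Figure D1:**
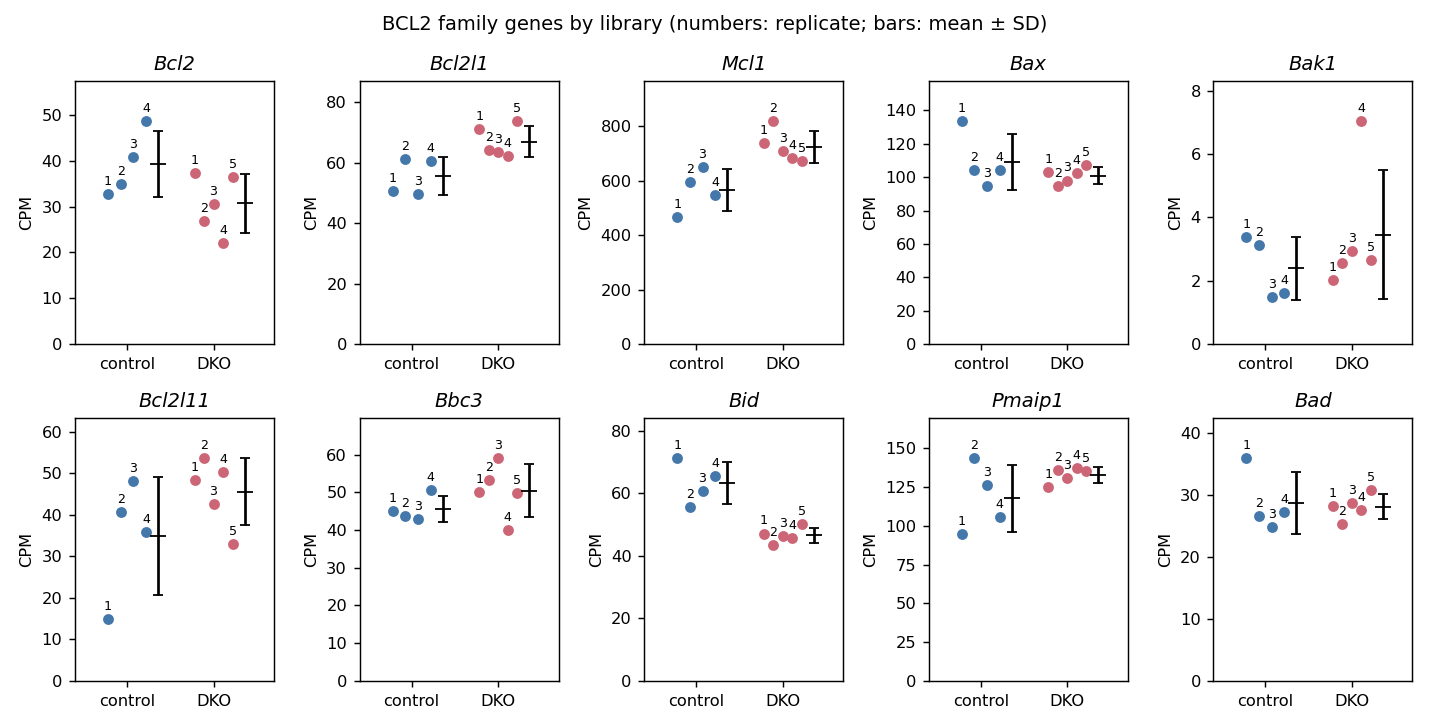
CPM of each of the 10 survival genes in each library (blue, control; red, DKO; numbers give the replicate; bars give mean ± SD). The groups stand apart for Bid, Mcl1 and Bcl2l1, and overlap for the other 7 genes.

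The levels were first compared among the genes on a scale per length, the TPM scale (counts per kilobase of merged exons, scaled to the same total in each library). Mcl1 was the highest at 617.4 ± 112.6 TPM (SD, n = 9), above 98.7% of the tested genes. Bax followed at 213.0 ± 15.3 TPM, Pmaip1 at 149.0 ± 22.1 TPM and Bbc3 at 73.3 ± 10.5 TPM, and the order of these 4 held in every library. Bid at 48.8 ± 7.80 TPM and Bcl2l1 at 43.6 ± 6.43 TPM had overlapping ranges, and Bid was the higher of the pair in 4 of 9 libraries, all of them control libraries. Bad was at 35.6 ± 3.10 TPM, and its range overlapped that of Bcl2l1. Bcl2l11 at 16.5 ± 5.01 TPM and Bcl2 at 12.1 ± 2.83 TPM had ranges that overlapped, with Bcl2l11 the higher in 7 of 9 libraries. Bad, Bax and Bcl2 share 20.5, 12.2 and 6.09% of their merged exon length with other genes, and reads of such stretches are dropped. With the strand columns summed, the counts of Bcl2 were 1.29 times the unstranded ones. The levels of these genes may therefore be low estimates, and the order of Bcl2l11 and Bcl2 is uncertain. Bak1 was the lowest at 3.96 ± 2.15 TPM, above 32.5% of the tested genes, and its highest library passed the lowest of Bcl2.

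**Figure D2:**
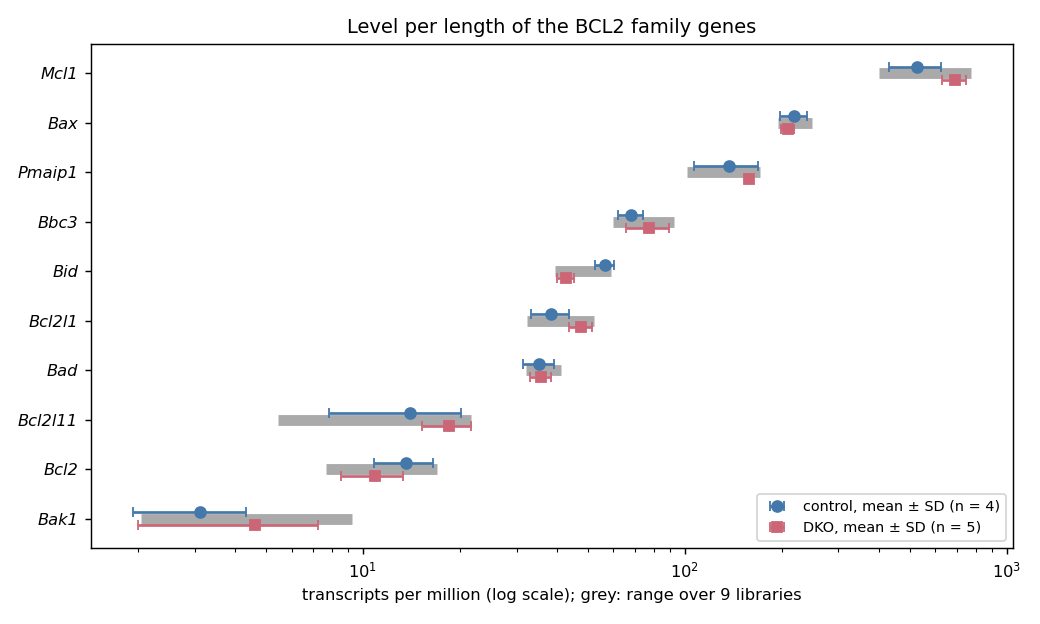
Level per length (TPM, log scale) of the 10 survival genes, ordered by the mean over 9 libraries. Points give group means with SD and grey bars the range over libraries. Mcl1 lies highest at 617.4 TPM and Bak1 lowest at 3.96 TPM, and the only neighbours whose ranges overlap are Bid with Bcl2l1, Bcl2l1 with Bad, Bcl2l11 with Bcl2, and Bcl2 with Bak1.

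Among the guardians, Mcl1 (ENSMUSG00000038612.16, plus strand of chromosome 3, 95658788 to 95663176 in GRCm38), which encodes a short-lived protein that restrains BAK1 and binds BIM and NOXA, had the largest level. Its level was 467.8, 593.0, 649.4 and 548.6 CPM in control replicates 1 to 4 and 738.4, 817.5, 706.9, 683.0 and 671.8 CPM in DKO replicates 1 to 5. Every DKO library lay above every control library, and control replicate 1 was the lowest. The group means were 564.7 ± 76.6 CPM (SD, n = 4) and 723.5 ± 58.4 CPM (SD, n = 5). The log2 fold change was 0.36 (SE 0.10, unadjusted p 0.00415, edgeR adjusted p 0.0933), short of the threshold. The DESeq2 Wald test (adjusted p 0.0277) and limma-voom with quality weights (0.0226) put it past the threshold, and the other 15 alternatives did not. Over all genes, 7.88% passed by DESeq2 and 6.68% by limma-voom. Without control replicate 1 the log2 fold change of Mcl1 was 0.26.

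Bcl2l1 (ENSMUSG00000007659.18, minus strand of chromosome 2, 152780668 to 152831728), which encodes BCL-XL, was at 50.7, 61.4, 49.7 and 60.7 CPM in the control libraries. In the DKO libraries it was at 71.3, 64.2, 63.5, 62.2 and 73.8 CPM. The groups did not overlap, but the gap between the highest control library and the lowest DKO library was small beside the spread within each group. Its log2 fold change was 0.27 (SE 0.10; edgeR adjusted p 0.196), and no alternative put Bcl2l1 past the threshold. Without control replicates 1 and 3, which were its lowest libraries, the log2 fold change was 0.12.

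Bcl2 (ENSMUSG00000057329.7, minus strand of chromosome 1, 106538178 to 106714274), the founding guardian and a target of IL-7 and IL-15 signalling in T cells, was at 32.6, 35.0, 40.8 and 48.6 CPM in control. It was at 37.4, 26.8, 30.6, 22.2 and 36.4 CPM in DKO. The lowest libraries were DKO replicates 4, 2 and 3, and the groups overlapped through DKO replicates 1 and 5. On the log2 scale the fold change was -0.36 (SE 0.17, unadjusted p 0.0548, edgeR adjusted p 0.329), of nearly the same size as that of Mcl1 and of the opposite sign. It kept its sign under all 17 alternatives, from -0.46 to -0.23, and passed the threshold in none, with the smallest size without control replicate 4.

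Summed per length, the 3 guardians were at 442.5 to 682.6 TPM in the control libraries and 683.7 to 830.7 TPM in the DKO libraries. Mcl1 made up 89.6 to 93.4% of that sum in every library, so the sum is mostly a measure of Mcl1. It has no test of its own here.

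Of the effectors, Bax (ENSMUSG00000003873.11, minus strand of chromosome 7, 45461697 to 45466898) was at 133.6, 104.0, 94.7 and 104.4 CPM in the control libraries and 103.2, 94.5, 98.0, 102.2 and 107.1 CPM in the DKO libraries. Control replicate 1 was the highest, and the other 8 libraries of both groups lay together. The fitted difference was -0.11 on the log2 scale (SE 0.10; edgeR adjusted p 0.636), and -0.01 without control replicate 1.

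Bak1 (ENSMUSG00000057789.14, minus strand of chromosome 17, 27019810 to 27029009), the other effector, was low. It was at 3.38, 3.12, 1.48 and 1.60 CPM in the control libraries and 2.02, 2.57, 2.94, 7.03 and 2.67 CPM in the DKO libraries, and its lowest count in a library was 67. DKO replicate 4 alone lay above the control range. This gave a log2 fold change of 0.52 (SE 0.39; edgeR adjusted p 0.558), and 0.09 without DKO replicate 4. Merged exons of Bak1 share 25.5% of their length with Ggnbp1 on the opposite strand, and unstranded counting drops the reads of such shared stretches, so its level is a low estimate.

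The activator BH3-only genes include Bid (ENSMUSG00000004446.12, minus strand of chromosome 6, 120891930 to 120916853). BID is cleaved by caspase-8 and carries the signal of death receptors to the mitochondria. Bid was at 71.3, 55.5, 60.8 and 65.6 CPM in the control libraries and 47.1, 43.4, 46.3, 45.6 and 50.2 CPM in the DKO libraries. The 5 DKO libraries lay close together and all below the lowest control library, replicate 2. Bid fell from 63.3 ± 6.75 CPM (SD, n = 4) to 46.5 ± 2.48 CPM (SD, n = 5), or 73.5% of control. The log2 fold change was -0.44 (SE 0.09, unadjusted p 3.77e-04, edgeR adjusted p 0.0257).

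The call for Bid did not hold without every library. It was kept without control replicate 1 (adjusted p 0.0127), control replicate 2 (0.0255), control replicate 3 (0.0419) or DKO replicate 5 (0.0404). It was lost without control replicate 4 (0.0750), DKO replicate 1 (0.0711), DKO replicate 2 (0.0638), DKO replicate 3 (0.0764) or DKO replicate 4 (0.0659), all by edgeR. Without control replicates 1 and 3 together it was kept (0.0363). With a term for the replicate number added to the edgeR model, the call was lost (adjusted p 0.137). The log2 fold change of Bid stayed between -0.50 and -0.35 over the 17 alternatives. Bid shares 17.7% of its merged exon length with Bcl2l13 on the opposite strand. With the strand columns summed, which counts the shared reads for both genes, the log2 fold change was -0.42 (adjusted p 0.0285, edgeR). Bcl2l13 itself was at 83.7 ± 14.1 and 82.4 ± 5.53 CPM (adjusted p 0.947, edgeR).

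The 5 tested genes whose pattern over the 9 libraries was most like that of Bid were Tmem199, Zcchc18, Ncf4, Cdkn2aipnl and Ubxn11. Likeness was the root mean square difference of log2 CPM after centring each gene, and it ran from 0.05 (Tmem199) to 0.09 (Ubxn11). Their log2 fold changes were -0.44 to -0.37, near that of Bid as follows from the way they were chosen. Bid lies on chromosome 6 and the 5 genes on chromosomes 4, 11, 15 and X.

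Bcl2l11 (ENSMUSG00000027381.16, plus strand of chromosome 2, 128126038 to 128162547), which encodes the BH3-only protein BIM, was at 14.9, 40.7, 48.2 and 35.8 CPM in the control libraries and 48.3, 53.7, 42.5, 50.4 and 33.0 CPM in the DKO libraries. Control replicate 1 was far below the other 8 libraries, which overlapped. The fitted log2 fold change was 0.39 (SE 0.27; edgeR adjusted p 0.531) with all libraries and 0.12 (adjusted p 0.719, edgeR) without control replicate 1.

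Bbc3 (ENSMUSG00000002083.13, plus strand of chromosome 7, 16308393 to 16318205), which encodes PUMA, a target of p53, was at 45.0, 43.8, 42.9 and 50.6 CPM in control. In DKO it was at 50.1, 53.3, 59.1, 40.0 and 49.9 CPM. DKO replicates 3 and 4 were the highest and the lowest of the 9 libraries. Its fold change was 0.15 on the log2 scale (SE 0.11; edgeR adjusted p 0.565).

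The sensitiser genes Pmaip1 and Bad encode BH3-only proteins that act by occupying guardians. Pmaip1 (ENSMUSG00000024521.8, plus strand of chromosome 18, 66458533 to 66465565) encodes NOXA, which binds MCL1. It was at 94.8, 143.8, 126.5 and 105.4 CPM in the control libraries and 125.1, 136.2, 130.7, 137.0 and 135.2 CPM in the DKO libraries. The DKO libraries lay within the control range. Its log2 fold change was 0.18 (SE 0.11; edgeR adjusted p 0.493), and 0.07 without control replicate 1, its lowest library.

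Bad (ENSMUSG00000024959.14, plus strand of chromosome 19, 6941861 to 6951899), whose protein is kept inactive by phosphorylation, was at 36.0, 26.6, 24.9 and 27.3 CPM in the control libraries and 28.2, 25.3, 28.7, 27.6 and 30.8 CPM in the DKO libraries. Control replicate 1 was the highest and the other libraries overlapped. Its log2 fold change was -0.03 (SE 0.12; edgeR adjusted p 0.928), and 0.08 without control replicate 1.

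**Figure D3:**
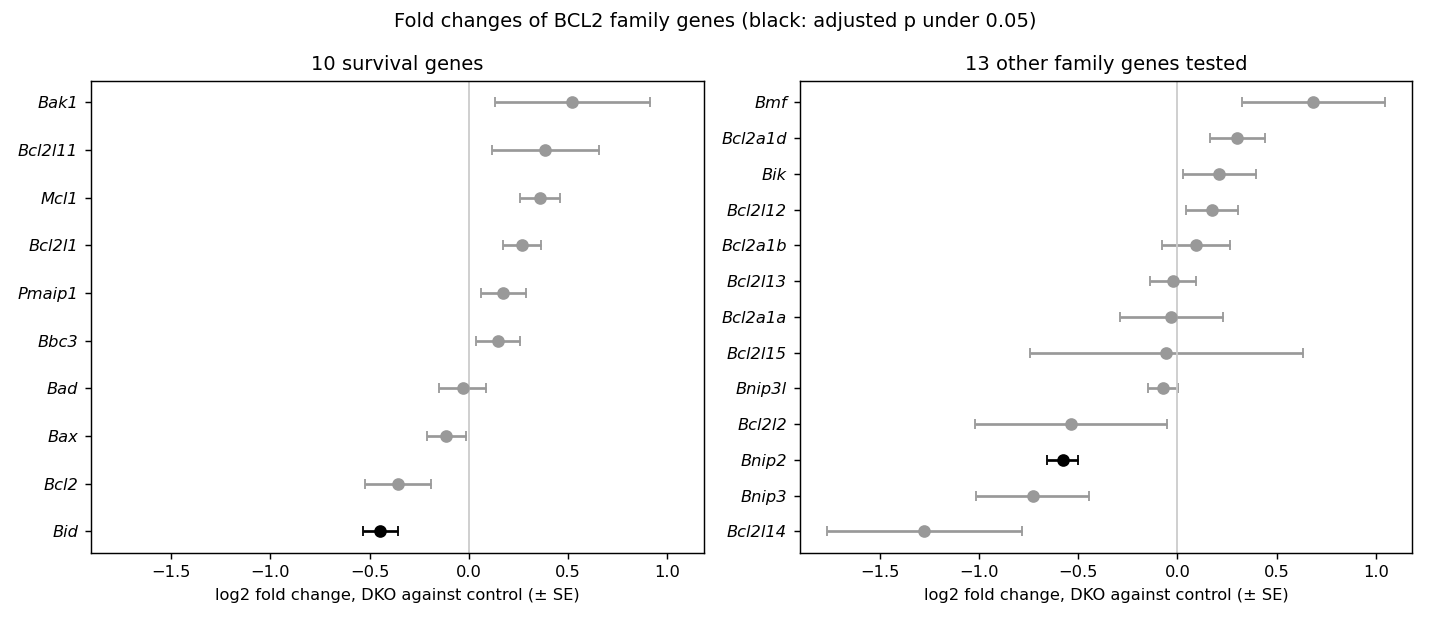
Log2 fold change of DKO against control (± SE) of the 10 survival genes (left) and of the 13 genes that passed the filter in the list of other family and Bnip genes (right). Black marks an adjusted p under 0.05, which Bid (-0.44) and Bnip2 (-0.58) reached.

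The ratio of Bcl2 to Bcl2l11 CPM was described in each library because their proteins oppose each other in effector T cells. It was 2.19, 0.860, 0.846 and 1.36 in control and 0.774, 0.500, 0.720, 0.440 and 1.10 in DKO. The 2 highest values were control libraries and the 5 lowest included 4 DKO libraries, but DKO replicate 5 lay above control replicates 2 and 3. The mean was 1.31 ± 0.629 (SD, n = 4) in control and 0.707 ± 0.262 (SD, n = 5) in DKO, and 1.02 ± 0.291 (SD, n = 3) in control without replicate 1. The ratio of Mcl1 to Pmaip1 was 4.85 ± 0.497 in control and 5.45 ± 0.489 in DKO, and that of Bax to Bcl2 was 2.88 ± 0.880 and 3.41 ± 0.733. Without control replicate 1, where the Bax to Bcl2 ratio was 4.09, its control mean was 2.48 ± 0.436 (SD, n = 3), and that of Mcl1 to Pmaip1 was 4.82 ± 0.605. The groups overlapped for each of these ratios, and none was tested. Reads of stretches shared with other genes are dropped from Bcl2 and Bax, so the sizes of their ratios are uncertain.

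Control replicate 1 moved several of these values. On the log2 scale, the median deviation from the mean over libraries of the longest tested genes (5996 bases of merged exons or more) minus that of the shortest (1893 bases or fewer) was -0.69 in this library and -0.05 to 0.16 in the others. It also had 16.7% unmapped reads, against 10.3 to 12.3% elsewhere. Against the mean of the other control libraries, Bcl2l11 (8029 bases of merged exons) was at -1.48 on the log2 scale, Bcl2 (9157 bases) at -0.35 and Bcl2l1 (4586 bases) at -0.18. The shorter Bax (1576 bases) was at 0.40, Bad (2558 bases) at 0.46 and Bak1 (2407 bases) at 0.71. Length did not order the genes fully. Bbc3 (2124 bases) was at -0.02, Pmaip1 (2732 bases) at -0.40, Mcl1 (3418 bases) at -0.35 and Bid (3550 bases) at 0.23. The part of gene length in these differences was not tested.

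**Figure D4:**
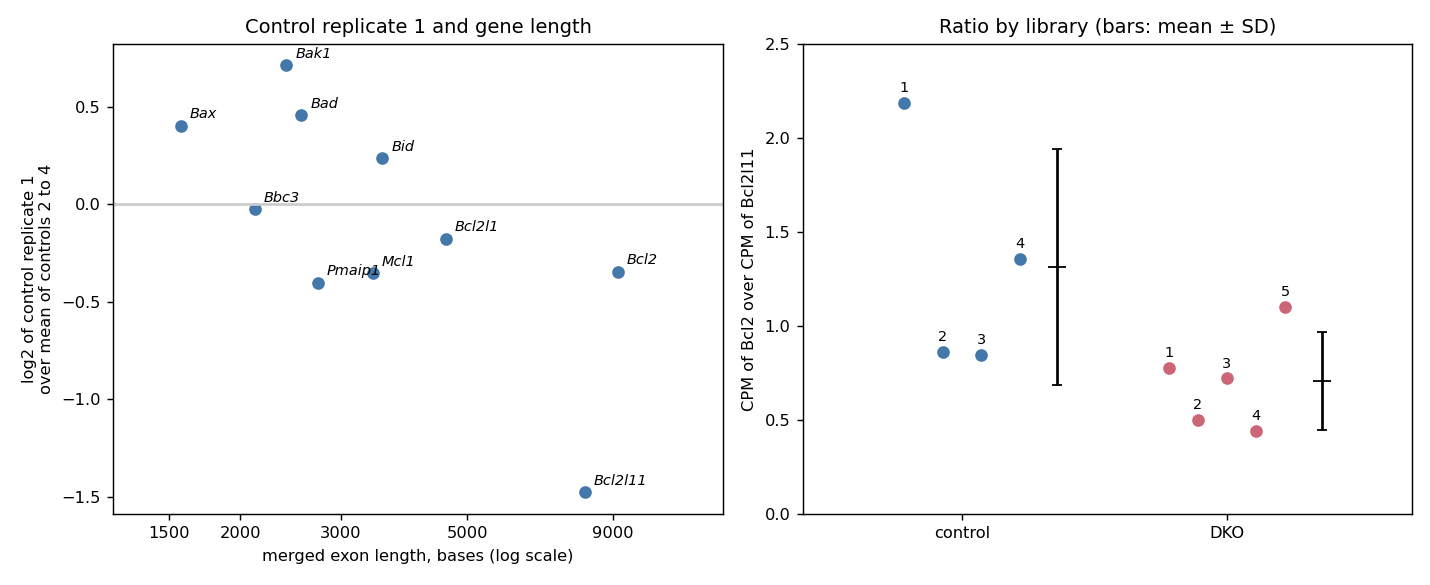
Left, log2 of the CPM in control replicate 1 over the mean of control replicates 2 to 4, against merged exon length (log scale), for the 10 survival genes, from -1.48 for Bcl2l11 to 0.71 for Bak1. Right, the ratio of Bcl2 to Bcl2l11 CPM in each library with mean ± SD, where control replicate 1 (2.19) is the highest and the other libraries of the groups overlap.

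Of 105 other genes in 8 lists of the family and its pathway, 101 passed the filter, and 3 passed the threshold (edgeR), near the 2.83% of all tested genes. Bnip2 and Eomes fell and Fasl rose. At an unadjusted p under 0.05 there were 18 of the 101, where 16.0% of all tested genes lay, and 7 had groups that did not overlap, where 8.71% of all tested genes did. Both counts are near those shares. Their median log2 fold change was 0.02. Without control replicate 1 the count past the threshold was 11, and that of all tested genes rose too, to 749 of 15185 (4.93%). The 11 were Bnip2, Eomes and Fasl with Bcl2a1d, Cx3cr1, Dynll1, Id3, Itpr1, Jak1, Ripk3 and Tnfrsf1a.

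In the list of other BCL2 family genes, which also takes in the Bnip genes, 13 of 16 genes passed the filter. Their median log2 fold change was -0.03, with 1 call by edgeR, against 2.83% of all tested genes. DESeq2 called 1 and limma-voom 3, against 7.88% and 6.68% of all tested genes. The edgeR call was Bnip2, a gene of a BCL2-binding protein rather than a family member. Bnip2 (ENSMUSG00000011958.17, plus strand of chromosome 9, 69989466 to 70008317), named for the binding of its protein to BCL2, was at 188.1, 181.1, 200.3 and 166.7 CPM in control. In DKO it was at 119.0, 133.0, 121.3, 127.3 and 116.1 CPM, each well below every control library. It fell from 184.0 ± 14.0 CPM (SD, n = 4) to 123.3 ± 6.78 CPM (SD, n = 5), with a log2 fold change of -0.58 (SE 0.08; edgeR adjusted p 0.00369), and stayed past the threshold with any 1 library left out. Bcl2a1d, a copy of the NF-kB target that encodes the guardian A1, was at 28.1, 19.1, 19.0 and 17.9 CPM in the control libraries and 27.3, 27.8, 23.4, 27.1 and 23.9 CPM in the DKO libraries. The DKO libraries lay above control replicates 2, 3 and 4 and below control replicate 1. Its adjusted p was 0.319 with all libraries and 0.0170 without control replicate 1 (edgeR). Bcl2a1a (1.96 and 1.92 CPM in control and DKO) and Bcl2a1b (2.83 and 3.02 CPM) are near-identical copies of it, so the split of reads among the 3 is uncertain. The BH3-only gene Bmf was at 1.17 ± 0.466 and 1.88 ± 0.756 CPM (adjusted p 0.387), Bik at 1.96 and 2.26 CPM (0.621), and the guardian gene Bcl2l2 at 0.768 and 0.528 CPM (0.639), by edgeR. Hrk and Bcl2l10 had 0 counts in all 9 libraries, which allows up to 0.00647 CPM over all libraries (3 counts, counting error only), and Bok had 1 count.

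Downstream of the mitochondria, 0 of the 13 apoptosome and caspase genes passed the threshold in edgeR, DESeq2 or limma-voom. Over all tested genes, 2.83% passed by edgeR, 7.88% by DESeq2 and 6.68% by limma-voom, and 16.0% had an unadjusted p under 0.05 in edgeR. With lists this short, few or no calls are near those shares. Dffb, which encodes a nuclease of apoptotic DNA, was the 1 gene at an unadjusted p under 0.05. The list's median log2 fold change was -0.07. Cycs, the gene of cytochrome c, averaged 25.2 ± 5.66 CPM in control and 24.0 ± 1.28 CPM across DKO libraries. Apaf1, the scaffold of the apoptosome, was at 104 ± 39.1 and 121 ± 11.7 CPM (log2 fold change 0.22, and -0.04 without control replicate 1), and Casp9 at 41.4 ± 6.85 and 38.9 ± 3.54 CPM. Of the 6 inhibitor of apoptosis genes, 0 passed the threshold by any of the 3 tools, and 1 (Naip2) had an unadjusted p under 0.05 in edgeR. Xiap, which encodes an inhibitor of caspases, was at 19.2 ± 3.82 and 20.6 ± 3.89 CPM.

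The death receptor list, whose signal reaches the mitochondria through BID, had a median log2 fold change of 0.07 over 13 tested genes, with 1 call and 3 genes at an unadjusted p under 0.05 by edgeR, against 2.83% and 16.0% of all tested genes. DESeq2 called 2 and limma-voom 3, against 7.88% and 6.68% of all tested genes. Fasl (ENSMUSG00000000817.10, minus strand of chromosome 1, 161780689 to 161788495), the ligand of FAS, was at 192.4, 179.2, 177.4 and 190.7 CPM in control. It was at 234.2, 242.6, 210.3, 226.3 and 234.4 CPM in DKO, above every control library. It rose by 0.31 on the log2 scale (SE 0.07; edgeR adjusted p 0.0406), but kept the threshold only without control replicate 1 when single libraries were left out (adjusted p 0.0648 to 0.122 without each of the other 8). Fas, its receptor, was at 37.0 ± 5.32 and 33.3 ± 3.59 CPM (adjusted p 0.573). Cflar, which encodes an inhibitor of caspase-8, was at 99.9 ± 15.7 and 101 ± 8.24 CPM (adjusted p 0.958). Besides Fasl, the genes at an unadjusted p under 0.05 were Tnfrsf1a and Ripk3, each higher in DKO. Tnfrsf1a was at 36.4 ± 5.61 and 48.6 ± 2.34 CPM, with no overlap between the groups (edgeR adjusted p 0.0730). Ripk3 was at 53.9 ± 3.96 and 66.4 ± 7.46 CPM (edgeR adjusted p 0.143).

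Regulators upstream were read in 3 lists of 11, 14 and 19 tested genes. Their counts are to be read against the 2.83% of all tested genes called by edgeR, 7.88% by DESeq2 and 6.68% by limma-voom. At an unadjusted p under 0.05 in edgeR, the share was 16.0%. Of 11 tested p53 and FOXO genes, 0 passed the threshold by edgeR, DESeq2 or limma-voom, and 1 (Foxo1) had an unadjusted p under 0.05, with a median log2 fold change of 0.08. Trp53 was at 134 ± 5.87 and 142 ± 5.95 CPM (adjusted p 0.617), and Foxo3, which encodes an activator of Bcl2l11 and Bbc3, at 6.70 ± 3.15 and 7.73 ± 2.01 CPM (adjusted p 0.761). Of 14 genes of cytokine survival signalling, 0 passed the threshold in edgeR or DESeq2, 1 did in limma-voom, and 2 (Jak1 and Pim3) had an unadjusted p under 0.05, with a median of 0.05. Jak1, the kinase gene of the shared cytokine receptors, was at 2999 CPM in control replicate 1 and 4736 to 4895 CPM in the other control libraries. Its log2 fold change was -0.38 (adjusted p 0.179) with all libraries and -0.54 (adjusted p 0.00165) without that library, by edgeR. Il7r, the IL-7 receptor gene, was at 297.3 ± 33.9 and 258.6 ± 73.7 CPM (adjusted p 0.670), Stat5b at 214 ± 66.2 and 241 ± 11.6 CPM (0.705), and Pim1 at 36.7 ± 5.24 and 38.6 ± 8.21 CPM (0.866). Of 19 genes of proteins that bind or degrade family members, 0 passed in edgeR or DESeq2, 2 did in limma-voom, and 1 (Dynll1, whose protein holds BIM on dynein) had an unadjusted p under 0.05, with a median of 0.02.

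Genes that separate short-lived effector cells from memory precursors, whose survival differs, were read last. Of 12 tested, 1 passed the threshold and 6 had an unadjusted p under 0.05 by edgeR, against 2.83% and 16.0% of all tested genes, with 8 higher and 4 lower and a median log2 fold change of 0.04. DESeq2 called 3 and limma-voom 4, against 7.88% and 6.68% of all tested genes. Eomes, which encodes a transcription factor of effector and memory cells, was at 59.6, 66.0, 78.0 and 84.4 CPM in the control libraries and 46.9, 59.0, 46.5, 52.9 and 52.0 CPM in the DKO libraries, with a narrow gap between the groups. It fell by 0.48 on the log2 scale (SE 0.12; edgeR adjusted p 0.0497), and kept the threshold only without control replicate 1 when single libraries were left out (adjusted p 0.0543 to 0.142 without each of the other 8). Klrg1, a marker of short-lived effector cells, was at 668.4 ± 56.5 and 545.8 ± 56.0 CPM. Its groups did not overlap, with an adjusted p of 0.125 in edgeR, 0.0462 in DESeq2 and 0.0323 in limma-voom. Cx3cr1, also a gene of effector cells, was at 811 ± 174 and 621 ± 28.6 CPM (adjusted p 0.163, edgeR), while the means of 4 other effector genes were higher in DKO with no adjusted p under 0.05. Tbx21 was at 1107 ± 113 and 1293 ± 111 CPM (adjusted p 0.253), Prdm1 at 108 ± 36.6 and 128 ± 5.13 CPM (0.609), S1pr5 at 660.3 ± 33.0 and 682.2 ± 74.7 CPM (0.839) and Zeb2 at 367 ± 108 and 372 ± 22.7 CPM (0.966), by edgeR. The log2 fold change of Zeb2 was 0.02, and -0.17 without control replicate 1. That library was also the lowest control library for Prdm1, at 56.4 CPM against 113.0 to 142.3 CPM in the other control libraries. The same held for S1pr5 (611.6 CPM against 668.7 to 682.6 CPM) and Tbx21 (956.2 CPM against 1101 to 1226 CPM). Id3, which encodes a regulator linked to memory precursors, was at 7.26 ± 1.99 and 11.2 ± 1.17 CPM, with no overlap between the groups and an adjusted p of 0.0963 (edgeR; 0.0211 without control replicate 1).

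**Figure D5:**
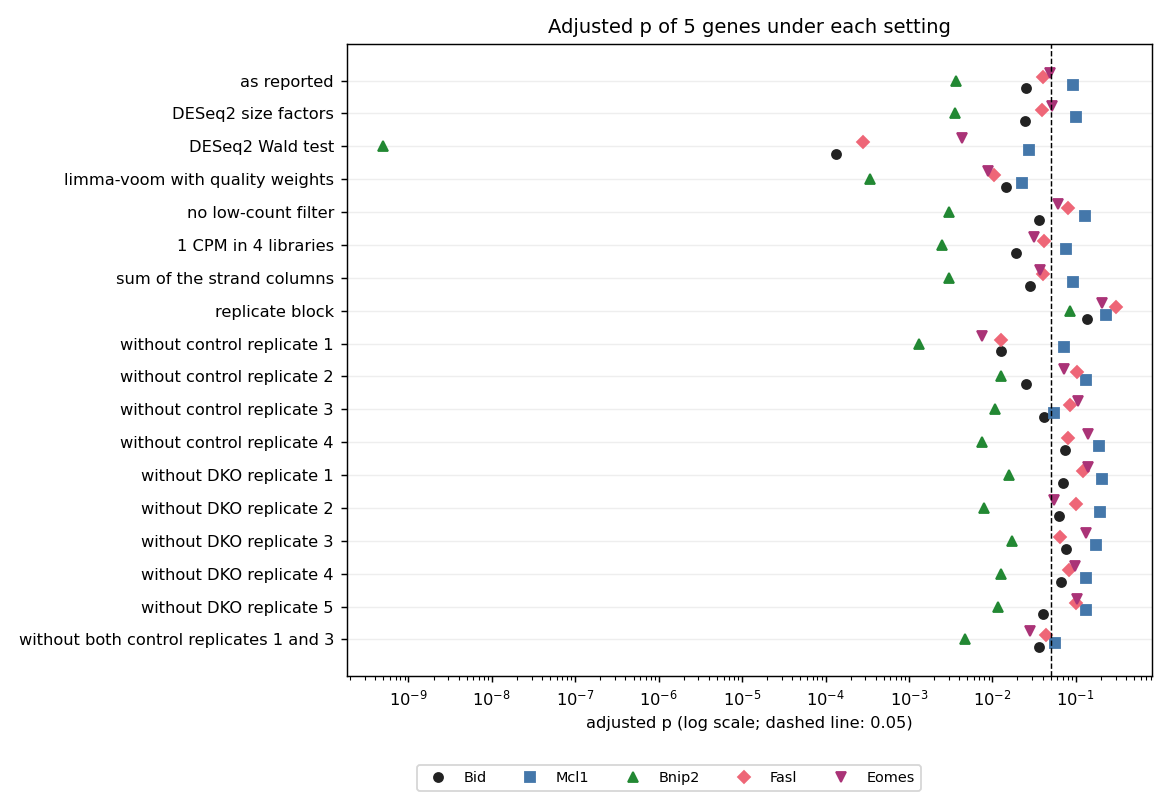
Adjusted p (log scale) of Bid, Mcl1, Bnip2, Fasl and Eomes as reported and under each of 17 alternatives, with the threshold of 0.05 dashed. Bnip2 is past it everywhere except with the replicate block (0.0861), Bid in 11 of the alternatives, and Mcl1 in 2.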

How the data were processed

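RNA from 9 libraries of sorted OT-I CD8+ T cells was prepared, per the labels' protocols, with the Takara SMART-Seq v4 kit and the Illumina Nextera Flex kit. Trim Galore 0.6.0, STAR 2.7.8a and the build mm10 are named in the submitters' processing notes. The deposited files hold unnormalised whole-number counts for each gene, without regard to strand and for each strand. The annotation they used is not given in the sources used here. This layout counts uniquely mapped reads, and reads shared by overlapping genes are dropped.

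The unstranded counts were used, and symbols, coordinates and exon lengths were taken from GENCODE M21 (GRCm38, the same assembly as mm10), in which 55230 of 55471 identifiers were found without the version. Rows without a gene entered no library size. Their shares were 10.3 to 16.7% for unmapped reads, 5.80 to 6.79% for multimapping reads, 4.01 to 5.20% for reads outside features and 4.97 to 5.31% for ambiguous reads. Libraries of a group were not duplicates (chi-square per degree of freedom at least 9.51).

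The test was that of edgeR 4.0.16 under R 4.3.3 (robust quasi-likelihood test, TMM factors 0.987 to 1.03, filterByExpr defaults, Benjamini-Hochberg adjustment over 14918 genes at 0.05), after the script had been tested on simulated data. SE is the size of the log2 fold change divided by the square root of F. Sums of markers were tested by exact permutation with scipy 1.17.1. Named genes were the 10 survival genes, Oxct1 and Bdh1, every gene of the lists past the threshold, 20 further listed genes whatever their values, and the 5 genes most like the survival gene with the smallest p. Of these, 1 gene is not reported here. Dffb, Naip2, Foxo1, Jak1, Pim3, Dynll1, Bcl2l13, Id3, Tbx21, Prdm1, S1pr5, Zeb2, Cx3cr1, Itpr1, Ripk3 and Tnfrsf1a were named after their values were seen. The survival genes and lists were chosen with earlier results of these data known. Alternatives were DESeq2 size factors, limma-voom with quality weights (limma 3.58.1), the Wald test of DESeq2 1.42.0, no low-count filter, a minimum of 1 CPM in 4 libraries, both strand columns summed, a replicate block, each library left out, and control replicates 1 and 3 both left out. CPM scaled by library totals only was added after seeing the data.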

Additional observations from a re-analysis of the deposited data

Results flagged for a closer look

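In 98 groups of 4 or 5 libraries over 49 genes, 8 held a library far from the others by Dixon's test at 95%. For independent groups chance gives about 1 in 20. These groups share libraries, and some genes, among them Jak1 and Ripk3, were named after their values were seen. The 8 therefore cannot be weighed against that share. Bak1 was at 7.03 CPM in DKO replicate 4, against 2.02 to 2.94 CPM in the other DKO libraries. Foxo3 was at 11.3 CPM in the same library, against 6.33 to 7.25 CPM. The other 6 were all in control replicate 1. There Bcl2a1d was at 28.1 CPM against 17.9 to 19.1 CPM in the other control libraries, and Cycs at 33.6 CPM against 21.9 to 22.9 CPM. Apaf1 was at 45.6 CPM against 118.2 to 130.9 CPM, and Stat5b at 116.1 CPM against 237.8 to 262.2 CPM. Jak1 was at 2999 CPM against 4736 to 4895 CPM, and Ripk3 at 59.8 CPM against 51.6 to 52.2 CPM. None of the 8 genes passed the threshold between the groups with all libraries.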

How the results depend on the processing

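The count of survival genes past the threshold (1, Bid) was 2 by the DESeq2 Wald test and by limma-voom (Bid and Mcl1), 0 with the replicate block and 0 to 1 with each library left out. For the other pathway genes (3) it was 6 by DESeq2, 13 by limma-voom, 1 with no low-count filter, 0 with the replicate block, 1 to 11 with each library left out and 8 without both control replicates 1 and 3. Over all tested genes the calls were 422 as reported, 1038 by DESeq2, 996 by limma-voom, 67 with the block and 179 to 749 with each library left out. The correlations of deviations of same-numbered libraries were -0.05, -0.01, 0.01 and -0.12, and so gave no sign that the labels' numbers pair the samples. With so few pairs they cannot exclude a pairing. The file of control replicate 4 carries the number 5, and pairing by it was not tried. With the labels' numbers DKO replicate 5, alone in its block, adds nothing to the blocked fold changes. The 3 survival genes without overlap were also 3 with CPM scaled by library totals only. The causes were not tested.

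Among the named genes, log2 fold changes whose sign differed from the reported one were as follows. With limma-voom they were 0.070 for Bad, 0.28 for Bcl2a1a, 0.079 for Cycs, -0.033 for Cflar, -0.067 for Pim1 and -0.11 for Zeb2. Without both control replicates 1 and 3 they were 0.046 for Bad, 0.42 for Bcl2a1a, 0.083 for Cycs, 0.023 for Fas, -0.065 for Stat5b, -0.11 for Pim1 and -0.057 for Zeb2, and with the block 0.027 for Bcl2a1a and -0.011 for S1pr5. With each library left out they ranged from -0.092 to 0.084 for Bad, -0.19 to 0.28 for Bcl2a1a, -0.0034 to 0.22 for Bcl2a1b, -0.043 to 0.35 for Apaf1, -0.13 to 0.088 for Cycs, -0.023 to 0.18 for Xiap, -0.072 to 0.11 for Cflar, -0.046 to 0.29 for Stat5b, -0.036 to 0.17 for Pim1, -0.15 to 0.052 for Bcl2l13, -0.012 to 0.093 for S1pr5 and -0.17 to 0.17 for Zeb2. The lowest count of a survival gene in a library was 67, for Bak1.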
